A study of Homo sapiens with 9 samples.

Results

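The genes described here are 4 interferon genes, IFNL1, IFNL2, IFNL3 and IFNB1, and 6 interferon receptor genes, IFNLR1, IL10RB, IFNAR1, IFNAR2, IFNGR1 and IFNGR2. They are 10 of the 33861 genes in the deposited table of HCT116, a human line grown from a colorectal carcinoma. They were selected by their gene names with earlier results of the same libraries known, so their own differences between groups are given as descriptions, with no test. The libraries formed 3 groups of 3. NC cells received neither factor, Activin cells received 100 ng/mL activin A for 5 days, and Activin+HGF cells received 100 ng/mL activin A for 5 days followed by 20 ng/mL hepatocyte growth factor (HGF) for another 5 days. How long NC cells were cultured is not stated, nor whether activin stayed in the medium during the HGF step. No group received HGF alone, activin without HGF for the longer time, or activin for 5 days and then neither factor. HGF, the end of the activin step and the additional culture time therefore cannot be told apart. In what follows, "after HGF" names the Activin+HGF libraries and no cause. All groups are the same line in the same serum-containing medium, and nothing states that the libraries of a group came from separate cultures, so the spread between them may be technical.

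Interferons are secreted proteins that cells make when they sense viral nucleic acid. The type I interferons, including interferon beta encoded by IFNB1, bind a receptor of IFNAR1 and IFNAR2 that nearly all cells carry. The type III interferons, or interferons lambda, encoded by IFNL1, IFNL2 and IFNL3, bind IFNLR1 paired with IL10RB and act mainly on epithelia such as the gut lining. Interferon gamma, the type II interferon, is made by lymphocytes and bound by IFNGR1 and IFNGR2. All 3 receptors signal through Janus kinases and STAT proteins, and the genes that encode the ligands are switched on by interferon regulatory factors (IRFs), NF-kappaB and AP-1.

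The table's coordinates were read as GRCh38, since 88.3% of its genes found in GENCODE v29 by identifier lay on the same chromosome with both ends within 1000 bases. The lambda genes lie together on chromosome 19, IFNL1 at chr19:39296407-39298673 on the plus strand, IFNL2 at chr19:39268396-39270188 on the plus strand and IFNL3 at chr19:39243553-39245129 on the minus strand. IFNB1 occupies chr9:21077104-21077942 on the minus strand. Of the receptor genes, IFNLR1 is at chr1:24154168-24187959 (minus strand) and IFNGR1 at chr6:137197485-137219449 (minus strand). The other 4 share a stretch of chromosome 21 on the plus strand, in the order IFNAR2 at chr21:33229901-33265664, IL10RB at chr21:33266367-33310187, IFNAR1 at chr21:33324429-33355703 and IFNGR2 at chr21:33403413-33479348.

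The promoters of the 4 ligand genes are shown because these genes were detected in the same group of libraries. Each line gives the 250 bases before a RefSeq transcription start (GRCh38.p14), 5′ to 3′ on the strand of the gene, with matches to the IRF core AANNGAAA, on either strand, and to the kappaB-like letters GGAANTTCC in capitals. The regions are chr19:39296157-39296406 for IFNL1, chr19:39268146-39268395 for IFNL2, chr19:39245251-39245500 for the first of 2 IFNL3 starts and chr9:21077943-21078192 for IFNB1.
IFNL1: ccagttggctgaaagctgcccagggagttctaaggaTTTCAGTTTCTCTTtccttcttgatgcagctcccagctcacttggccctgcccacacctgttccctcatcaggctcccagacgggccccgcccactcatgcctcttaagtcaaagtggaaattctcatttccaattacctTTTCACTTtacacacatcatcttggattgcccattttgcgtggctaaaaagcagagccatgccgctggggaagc
IFNL2: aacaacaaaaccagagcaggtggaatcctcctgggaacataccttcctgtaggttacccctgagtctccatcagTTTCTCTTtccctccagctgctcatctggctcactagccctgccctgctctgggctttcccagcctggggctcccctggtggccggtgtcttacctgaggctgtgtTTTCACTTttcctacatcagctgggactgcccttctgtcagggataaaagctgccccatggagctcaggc
IFNL3: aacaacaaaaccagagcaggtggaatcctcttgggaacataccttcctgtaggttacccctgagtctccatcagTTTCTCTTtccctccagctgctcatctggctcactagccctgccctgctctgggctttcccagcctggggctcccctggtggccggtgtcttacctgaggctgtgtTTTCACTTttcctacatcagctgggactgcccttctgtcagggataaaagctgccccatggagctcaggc
IFNB1: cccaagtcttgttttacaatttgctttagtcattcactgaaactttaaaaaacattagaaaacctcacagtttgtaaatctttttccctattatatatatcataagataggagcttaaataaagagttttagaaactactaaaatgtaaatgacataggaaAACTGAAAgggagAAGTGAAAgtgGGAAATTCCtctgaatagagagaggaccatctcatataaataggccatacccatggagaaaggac
The IFNL1 window held 3 matches to the IRF core, 2 of them overlapping, and the IFNL2, IFNL3 and IFNB1 windows held 2 each. The kappaB-like letters were in the IFNB1 window alone among the 4, at positions -65 to -57 counted from the start, beside the IRF cores that begin at -89 and -76. Of 35114 RefSeq windows of the same length, 20.3% held an IRF core, 4.54% held 2 or more, 0.826% held the kappaB-like letters and 0.182% held both. The second IFNL3 start held none of these letters. The IFNL2 and IFNL3 windows were identical at 99.6% of bases, whereas IFNL1 and IFNL2 were identical at 28%. Of the 6 receptor genes, 5 had a RefSeq window and none of these held an IRF core or the kappaB-like letters. Letters of a STAT site, TTCNNNGAA, were in the IFNLR1 window at positions -238 to -230, in the IFNB1 window at positions -218 to -210 (not capitalised above) and in 6.57% of all windows. Only this form of kappaB-like letters was searched, so a window without it may still hold another NF-kappaB site. These matches are descriptions of the sequence only.

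Total counts were between 57453977 and 77016167 per library. In all, 20988 genes passed the filter on low counts, among them all 10 members. IFNL1, IFNL2, IFNL3 and IFNB1 passed through the Activin libraries alone. Log2 values of genes correlated within a group with Pearson's r of 0.940 to 0.970. Activin library 2 and Activin+HGF library 1 stood furthest from the others of their groups, with a chi-square per degree of freedom of 195 to 249 in the pairs that include them and 54.9 to 77.9 in the other pairs. The line's epithelial markers were present, with 6 of 8 markers over 0.5 FPKM in every library (EPCAM, CDH1, KRT8, KRT18, KRT19 and CDX2). KRT20 fell below that level in some libraries, and VIL1, which encodes villin of the brush border, had at most 16 counts in any library. FPKM, in which counts are scaled to gene length and library size, is used wherever levels of different genes are compared. CPM, counts brought to a common library size by TMM scaling in edgeR, is used where a receptor gene is compared between libraries. For most genes of the lists FPKM or counts are printed by library. Their log2 fold changes rest on TMM scaling, so FPKM can differ between groups where these do not.

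The lambda interferon genes had 0 counts in NC, were clearly present with activin and were close to 0 again after HGF. IFNL1 had 0 counts in each NC library, 957, 1184 and 942 counts with activin and 4, 0 and 0 counts after HGF. IFNL2 had 0 counts in all NC and all Activin+HGF libraries and 1061, 1125 and 1086 counts in the Activin libraries. IFNL3 had 0 counts in NC, then 996, 1363 and 1157 with activin and 0, 8 and 0 after HGF. Every Activin library therefore lay above all 6 other libraries for each of the 3 genes.

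IFNB1, the only type I interferon gene among the members, had the same order of groups at a lower level. It had 0, 0 and 4 counts in NC, 106, 121 and 229 with activin and 0 in each library after HGF. Activin library 3 held the most IFNB1, at 3.05 CPM against 1.44 and 1.94 CPM in the other two, and it held the lowest IFNL1 of its group. Activin library 2 was highest for the 3 lambda genes.

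**Figure D1:**
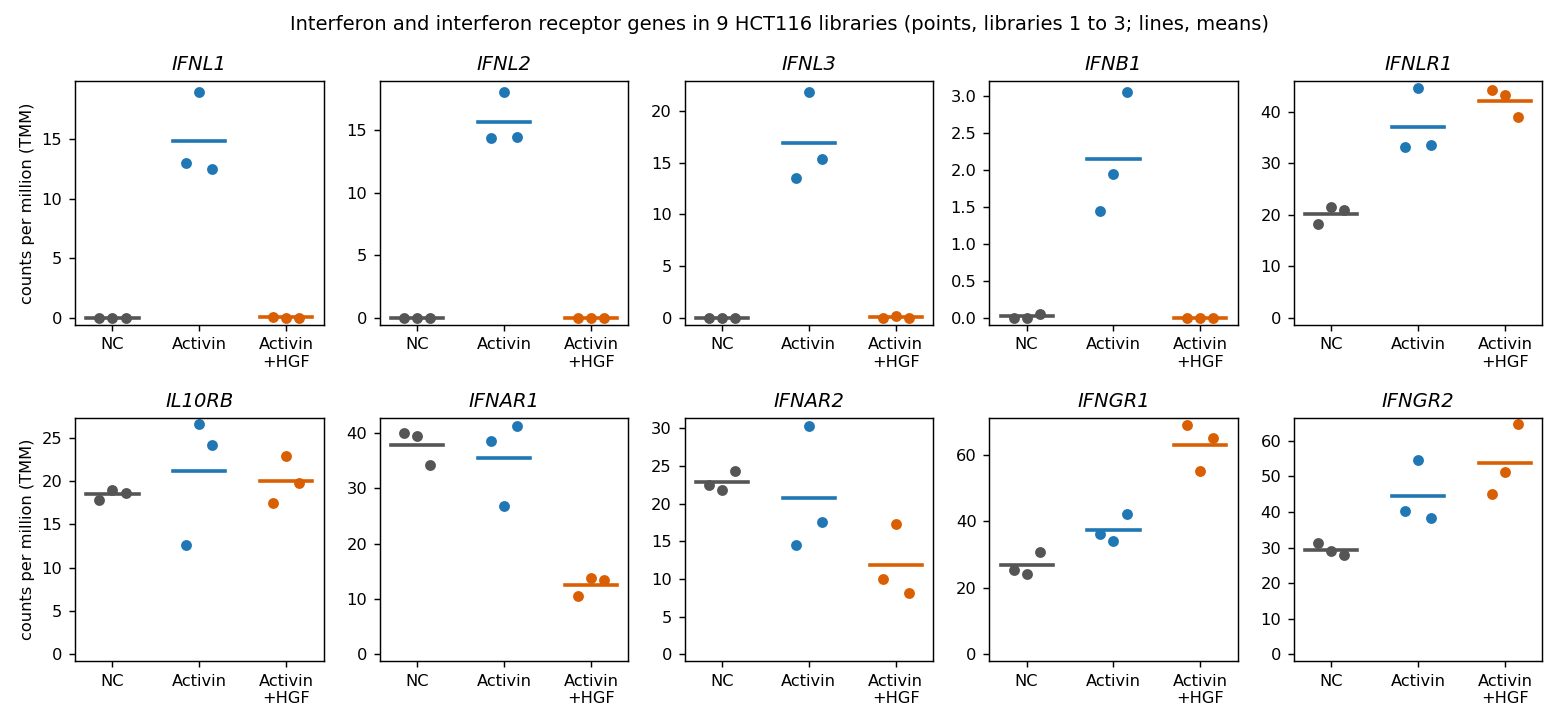
CPM after TMM scaling (vertical axes, linear and different in each panel) for the 10 genes in NC, Activin and Activin+HGF; points are libraries 1 to 3 of a group and lines are group means. The 4 interferon genes stand visibly above 0 in Activin alone, IFNAR1 is lowest in Activin+HGF at 10.5 to 13.7 CPM, and IFNGR1 is highest there at 55.1 to 68.9 CPM.

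In the Activin libraries the lambda genes reached the level of well expressed genes. Mean FPKM was 17.9 ± 2.62 for IFNL1, 15.5 ± 0.616 for IFNL2, 20.5 ± 3.34 for IFNL3 and 2.43 ± 1.02 for IFNB1 (SD, n = 3). IFNL3 was above 95.3% of all genes of the table in mean FPKM of this group, IFNL1 above 94.6%, IFNL2 above 93.5% and IFNB1 above 72.5%. The ranges of IFNL1 (16.0 to 20.9 FPKM), IFNL2 (15.0 to 16.2) and IFNL3 (17.6 to 24.2) overlapped between IFNL1 and either of the others, and IFNL3 lay above IFNL2 without overlap. IFNB1 made up 3.34%, 3.11% and 6.62% of the summed FPKM of the 4 genes in Activin libraries 1, 2 and 3. IFNL1 was 9.80, 10.6 and 4.45 times as high as IFNB1 per length in these libraries.

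A fold against groups at 0 is a lower bound, computed from the value that 3 counts have in whichever library of the group is smallest. Activin was at least 303-fold higher than NC for IFNL1. For IFNL2, Activin was at least 283-fold higher than Activin+HGF. For IFNB1 the ratio of summed, depth-scaled counts was 113 for Activin over NC, with an exact 95% interval of 43.7 to 415, and Activin was at least 38.8-fold higher than Activin+HGF. The same ratio for Activin over Activin+HGF was 683 for IFNL1 (267 to 2509) and 390 for IFNL3 (198 to 903). These intervals and bounds cover counting error only. The intervals pool the libraries of a group, treat reads as independent and leave out the spread between libraries, so they are no test of a difference. The 3 counts between 1 and 40 among the 4 genes (4, 8 and 4) were all multiples of 4, as were 35.0% of all counts of that size in the table, where 25.0% of the whole numbers from 1 to 40 are. The part of this in the low values was not tested. No fold is given for Activin+HGF against NC, where both groups were at or near 0. The floor of 3 counts, a chosen value and not a measured limit of detection, corresponded to 0.0373 to 0.0551 CPM. Counts of 0 do not show that a transcript was absent.

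Reads may be divided uncertainly between IFNL2 and IFNL3. Of all 50-base windows of the longest annotated IFNL2 transcript, 32.0% also occurred in IFNL3, falling to 5.17% at 100 bases and to 0 at 150 bases. IFNL1 shared no 50-base window with either. The split between IFNL2 and IFNL3 is thus less certain than the level of IFNL1. As these are bulk libraries, interferon RNA in a few cells at a high level and in many cells at a low level cannot be told apart.

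A gene is named as called, risen or fallen where its adjusted p over all tested genes was under 0.05 and its log2 fold change at least 1 in size, with edgeR unless another tool is given. By this rule 6.78% of tested genes were higher, 4.62% lower and 11.4% either in Activin against NC. For Activin+HGF against Activin 3.87% were higher, 4.21% lower and 8.09% either, and for Activin+HGF against NC 11.3% higher, 10.2% lower and 21.5% either. The 4 interferon genes, which passed the filter through the Activin libraries alone, and the receptor genes are not read against these shares. Of the calls against Activin, 47.9% were higher with TMM scaling and 15.0% with plain library totals. For Activin+HGF against NC these shares were 52.6% and 33.4%. Plain totals moved the median log2 fold change of all genes by -0.34 in the comparison of Activin+HGF with Activin, by -0.27 in Activin+HGF against NC and by 0.078 in Activin against NC.

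Of the other interferon genes, IFNE was the 1 measured above trace counts. Of 18 listed, 7 were in the table, and IFNE, which encodes interferon epsilon of mucosal epithelia, was the 1 with enough counts for the test. IFNA1, IFNA5, IFNA13, IFNA21, IFNW1 and IFNL4 had at most 19 counts in any library. IFNE had 43, 65 and 95 counts in NC, 64, 8 and 21 in Activin and 0, 8 and 0 in Activin+HGF. It fell by 4.49 ± 1.25 (log2, SE) in Activin+HGF against NC (adjusted p = 0.0202, edgeR), a call that was lost without NC library 3 (adjusted p = 0.0606, edgeR). The difference between Activin and NC, -1.15 ± 1.04, did not pass in edgeR.

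The receptor genes, unlike their ligands, were expressed in every library. Per length, IFNGR2 and IFNGR1 were the highest in each group. The order in NC was IFNGR2 at 10.8 ± 0.868 FPKM, IFNGR1 at 7.32 ± 0.993, IFNAR1 at 4.94 ± 0.441, IFNAR2 at 4.45 ± 0.286, IL10RB at 3.66 ± 0.0436 and IFNLR1 at 3.66 ± 0.248 (SD, n = 3). The ranges of IFNAR1 and IFNAR2 overlapped, as did those of IL10RB and IFNLR1. In Activin, IFNLR1 came next after these at 7.07 ± 0.575 FPKM, above IFNAR1, IL10RB and IFNAR2 at 4.97, 4.37 and 4.18, whose ranges overlapped from one to the next. In Activin+HGF, IFNAR1 was the lowest at 1.34 ± 0.309 FPKM, and its range overlapped that of IFNAR2 at 1.89 ± 0.887.

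IFNLR1, the chain that binds interferons lambda and that is restricted largely to epithelial cells, was higher in both treated groups than in NC. It measured 18.1, 21.4 and 20.9 CPM in NC, 33.2, 44.7 and 33.5 CPM in Activin and 44.3, 43.2 and 39.0 CPM in Activin+HGF. Neither treated group overlapped NC, and the treated groups overlapped each other. The log2 fold change was 0.88 ± 0.18 (SE) for Activin against NC and 1.06 ± 0.18 for Activin+HGF against NC. The second was 0.79 with library totals, 0.75 with limma on log2(FPKM + 0.1) and 0.95 without NC library 1. The difference between the treated groups was 0.18 ± 0.18 in CPM. It had the opposite sign with library totals (-0.15).

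IL10RB, the chain that receptors for interferons lambda, interleukin-10, interleukin-22 and interleukin-26 share, did not follow IFNLR1. It measured 17.8, 19.0 and 18.6 CPM in NC, 12.7, 26.6 and 24.2 CPM in Activin and 17.5, 22.9 and 19.7 CPM in Activin+HGF. The NC values lay within the range of either treated group, and Activin library 1 was the lowest of all 9. The log2 fold change was 0.20 ± 0.26 for Activin against NC, -0.08 ± 0.26 for Activin+HGF against Activin and 0.12 ± 0.26 for Activin+HGF against NC. Each of these was smaller than its standard error.

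IFNAR1, the signalling chain of the type I receptor that carries TYK2, was low in Activin+HGF. It measured 39.9, 39.4 and 34.3 CPM in NC, 38.6, 26.9 and 41.2 CPM in Activin and 10.5, 13.7 and 13.4 CPM in Activin+HGF. The Activin+HGF libraries lay below all 6 others, and Activin library 2 was the lowest of the remaining ones. The log2 fold change of IFNAR1 was -1.50 ± 0.21 in Activin+HGF against Activin and -1.59 ± 0.21 against NC. Leaving out any 1 library gave -1.67 to -1.38 and -1.67 to -1.48. The mean of Activin against NC differed by -0.09 ± 0.21.

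IFNAR2, the chain that binds type I interferons with high affinity and carries JAK1, varied more between libraries. It measured 22.5, 21.9 and 24.3 CPM in NC, 14.5, 30.3 and 17.6 CPM in Activin and 10.0, 17.3 and 8.14 CPM in Activin+HGF. The Activin+HGF libraries lay below NC and overlapped Activin. The log2 fold change was -0.81 ± 0.33 against Activin and -0.95 ± 0.33 against NC. The second was -1.05 with the replicate number as a block, -1.21 with library totals, -1.28 with limma on log2(FPKM + 0.1) and -1.34 without Activin+HGF library 2. A readthrough row, ENSG00000249624, spans IFNAR2 and 30794 bases of IL10RB, with 0, 70 and 0 counts in NC, 0 in each Activin library and 118, 88 and 408 in Activin+HGF. In Activin+HGF library 3 it held 43.9% of the sum of both rows. With these counts added to IFNAR2 the log2 fold change was -0.46 against Activin and -0.62 against NC, so the size of the difference depends on how overlapping reads were assigned. IL10RB, which the row also overlaps, had 954, 1577 and 1266 counts in Activin+HGF. The readthrough counts were not added to IL10RB, so its level and the ratio of IFNLR1 over IL10RB in that group may depend on this too.

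IFNGR1, which binds interferon gamma, was lowest in NC and highest in Activin+HGF. It measured 25.3, 24.1 and 30.7 CPM in NC, 36.2, 34.1 and 42.3 CPM in Activin and 68.9, 55.1 and 65.1 CPM in Activin+HGF. No pair of groups overlapped. The log2 fold change was 0.49 ± 0.18 for Activin against NC, 0.75 ± 0.18 for Activin+HGF against Activin and 1.24 ± 0.18 for Activin+HGF against NC. With library totals the last was 0.96 and the second 0.39, and with limma on log2(FPKM + 0.1) they were 0.93 and 0.37.

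IFNGR2, the accessory chain of the interferon gamma receptor, measured 31.3, 28.9 and 27.8 CPM in NC, 40.3, 54.5 and 38.4 CPM in Activin and 45.1, 51.1 and 64.6 CPM in Activin+HGF. Both treated groups lay above NC and overlapped each other. The log2 fold change was 0.60 ± 0.20 for Activin against NC, 0.27 ± 0.20 for Activin+HGF against Activin and 0.87 ± 0.20 for Activin+HGF against NC. With library totals the second turned to -0.05. The gene TMEM50B lies on the opposite strand across 46864 bases of IFNGR2, and without a stated strand setting reads of the pair cannot be told apart. In the same way the antisense gene IL10RB-DT covers 1792 bases of IFNAR2.

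**Figure D2:**
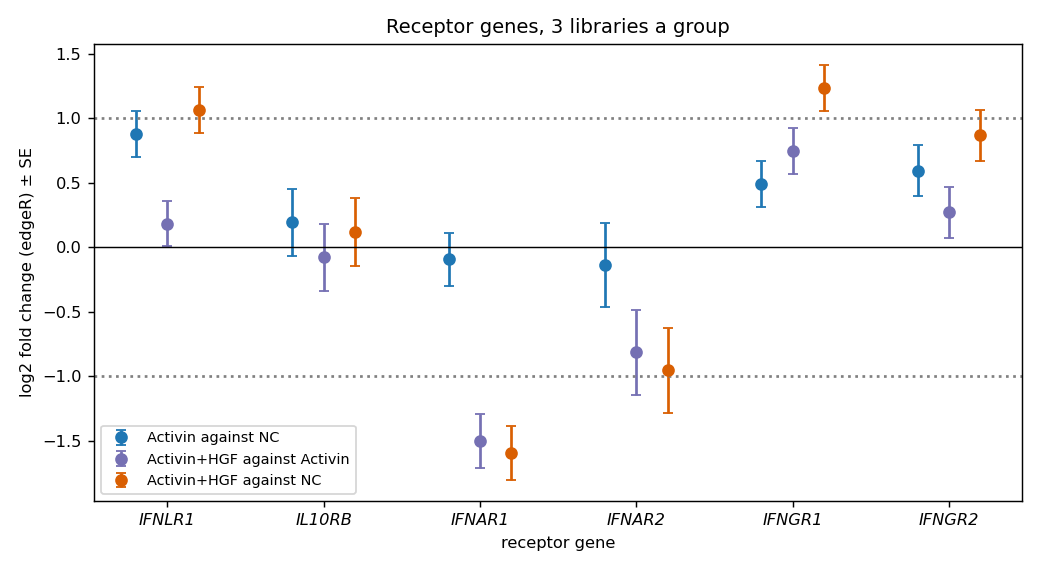
Log2 fold change from edgeR (vertical axis) of the 6 receptor genes in the 3 comparisons; points are estimates, bars are standard errors, and dotted lines mark -1 and 1. IFNAR1 lies lowest, at -1.59 against NC, and IFNGR1 reaches 1.24 against NC.

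Of the 6 receptor genes, 3 did not overlap between Activin and NC, where 42.2% of all tested genes did not overlap. Between Activin+HGF and Activin it was 2 of 6 against 32.7% of tested genes, and between Activin+HGF and NC 5 of 6 against 53.8%. As the receptor genes were picked from these same comparisons, the counts are printed as descriptions.

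The ratio of the chains was higher in both treated groups than in NC for the lambda receptor, and overlapped between groups for the others. The FPKM ratio of IFNLR1 over IL10RB was 0.934, 1.03 and 1.03 in NC, 2.41, 1.54 and 1.27 in Activin and 2.32, 1.72 and 1.81 in Activin+HGF, so that both treated groups lay above NC. The mean ratio was 1.74 times that of NC in Activin and 1.95 times in Activin+HGF. The ratio of IFNAR1 over IFNAR2 was 1.11 ± 0.147 in NC, 1.32 ± 0.634 in Activin and 0.782 ± 0.298 in Activin+HGF (SD, n = 3), with overlap between each pair of groups. Activin+HGF overlapped NC (0.945 to 1.21) through library 3 alone, at 1.11 beside 0.697 and 0.536 in libraries 1 and 2. In that library the readthrough row held 43.9% of its sum with IFNAR2. These ratios leave out the readthrough counts, so this overlap may depend on how reads were assigned. The ratio of IFNGR1 over IFNGR2 was 0.682 ± 0.123, 0.653 ± 0.178 and 0.898 ± 0.211 in the same order and overlapped likewise. A ratio within a library does not depend on how libraries are scaled.

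**Figure D3:**
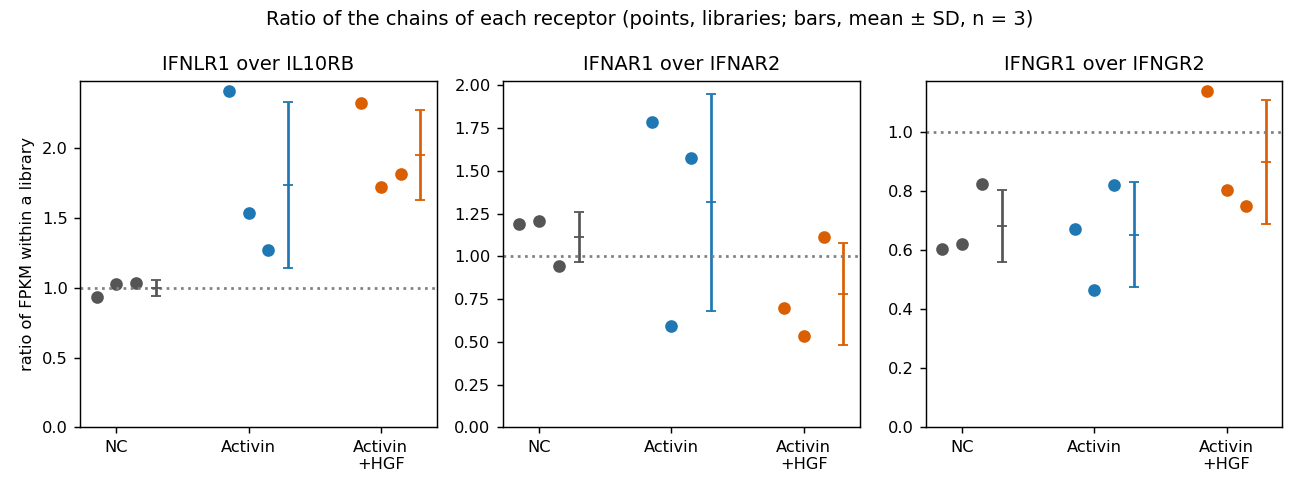
FPKM ratio of the chains of each receptor within a library (vertical axes from 0), with points for libraries and bars for mean ± SD of 3; the dotted line marks equal levels. IFNLR1 over IL10RB lies near 1 in NC and at 1.27 to 2.41 in Activin, and the other ratios overlap between groups. For IFNAR1 over IFNAR2, Activin+HGF overlaps NC through library 3 alone, and readthrough counts are left out.

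The neighbouring receptor genes of chromosome 21 had differences of both signs between Activin+HGF and NC. In the deposited coordinates IFNAR2 ends 702 bases before IL10RB begins and IL10RB lies 14241 bases before IFNAR1. IFNAR1 lies 47709 bases before IFNGR2 there, a stretch of 249 kb in all. In Activin+HGF against NC the log2 fold changes in this order were -0.95, 0.12, -1.59 and 0.87. Of 10 neighbouring genes listed, 8 were in the table and 7 were tested. SON, which encodes a splicing cofactor, was the 1 neighbour called by edgeR with TMM scaling, falling by 1.02 ± 0.24 in Activin+HGF against NC (adjusted p = 0.00861, edgeR). This call was lost without Activin+HGF library 1 (log2 fold change -0.99). In Activin against NC, SON already had -0.9998 ± 0.24 (adjusted p = 0.0153, edgeR), just short of the fold limit. Its difference between Activin+HGF and Activin was -0.02 ± 0.23. TMEM50B, which overlaps IFNGR2, had 0.61 ± 0.23, GART, an enzyme of purine synthesis, 0.09 ± 0.21, DONSON, a replication factor, 0.24 ± 0.23, CRYZL1 -0.13 ± 0.25, ITSN1, an endocytic scaffold, -0.80 ± 0.20 and DNAJC28 -1.75 ± 0.62, and none of these passed in edgeR with TMM scaling. DNAJC28 was called lower by DESeq2, and DNAJC28 and ITSN1 both by limma on log2(FPKM + 0.1) and by edgeR with library totals.

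**Figure D4:**
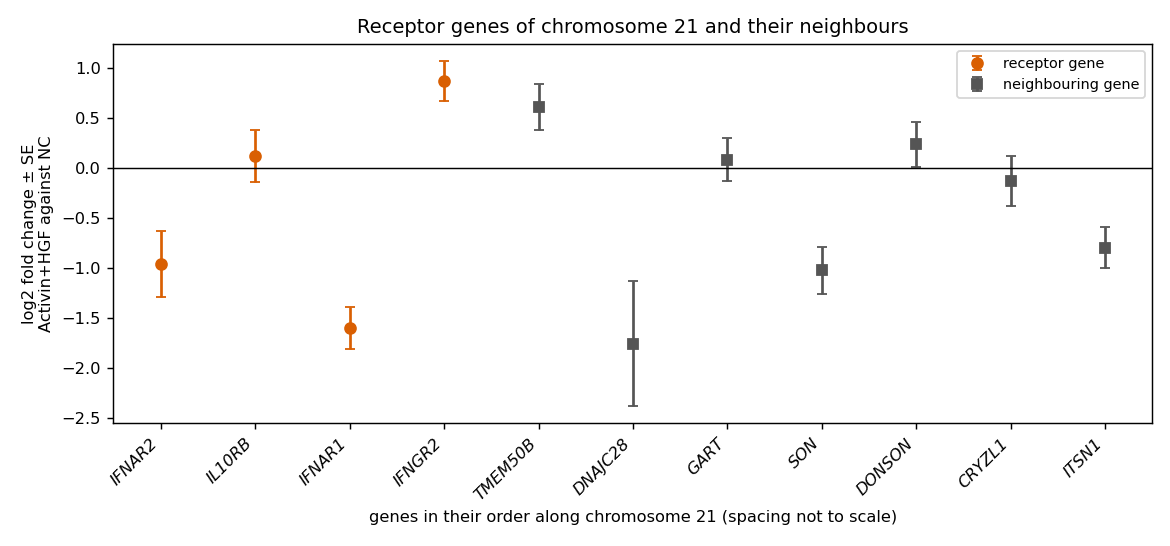
Log2 fold change of Activin+HGF against NC (vertical axis, bars are standard errors) for the 4 receptor genes and 7 tested neighbours in their order along chromosome 21, with spacing not to scale. IFNAR1 (-1.59) lies between IL10RB (0.12) and IFNGR2 (0.87).

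The other members of the pathway, from lists that were also drawn up with earlier results known, were tested across all genes. None of the 6 signal transducers described here was called in any comparison by edgeR, DESeq2 or limma. At an unadjusted p under 0.05 in edgeR, 4 were higher in Activin than in NC, 1 was lower in Activin+HGF than in Activin, and 2 were higher in Activin+HGF than in NC. The median log2 fold change of the 6 was 0.52 in Activin against NC, beside 0.021 for all tested genes, and -0.19 in Activin+HGF against Activin, beside -0.04.

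STAT2, which pairs with IRF9 in interferon signalling, measured 4.78, 4.17 and 4.30 FPKM in NC, 7.56, 6.40 and 5.85 in Activin and 2.63, 3.8 and 3.73 in Activin+HGF. The Activin libraries lay above all others. Activin+HGF lay below NC in FPKM, but in CPM these groups overlapped, at 25.0 to 30.5 against 29.5 to 32.3 (log2 fold change -0.10 ± 0.17). The log2 fold change of STAT2 was 0.50 ± 0.17 in Activin against NC and -0.60 ± 0.17 in Activin+HGF against Activin. IRF9 had 0.74 ± 0.28 and -0.21 ± 0.28, and was called in the first without Activin library 1 (1.03).

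STAT3, which interleukin-10 family receptors use, had 0.68 ± 0.16 in Activin against NC and 0.91 ± 0.16 in Activin+HGF against NC (adjusted p = 0.0161 and 0.00237, edgeR), short of the fold limit. JAK1 had 0.55 ± 0.18 in Activin against NC, TYK2 0.39 ± 0.21 and JAK2, the kinase of IFNGR2, 0.16 ± 0.28. None of the 3 kinases passed in any comparison in edgeR, DESeq2 or limma.

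Of 12 negative regulators, 3 rose with activin and none fell by edgeR, DESeq2 or limma, with none lower at an unadjusted p under 0.05 in edgeR either, where 6.78% of all tested genes rose and 4.62% fell. Between Activin+HGF and Activin 1 rose and 1 fell by edgeR, where 3.87% of all rose and 4.21% fell. ISG15, a ubiquitin-like protein that stabilises the receptor inhibitor USP18 and is itself induced by interferon, measured 41.3, 44.6 and 37.8 FPKM in NC, 540, 768 and 633 in Activin and 159, 135 and 132 in Activin+HGF. It rose by 3.91 ± 0.25 on the log2 scale with activin (adjusted p = 1.23e-05, edgeR) and fell by 1.81 ± 0.23 after HGF (adjusted p = 0.00302, edgeR). Activin+HGF still lay above NC by 2.10 ± 0.23 (adjusted p = 0.000159, edgeR). USP18 had 0.41 ± 0.26 and -0.32 ± 0.26 in these comparisons and did not pass in edgeR.

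SOCS1, which blocks Janus kinases at interferon receptors, went up in both steps. It measured 0.68, 0.61 and 0.48 FPKM in NC, 2.85, 4.45 and 2.75 in Activin and 6.98, 7 and 7.24 in Activin+HGF, in rising order. The groups did not overlap. SOCS1 rose by 2.45 ± 0.30 with activin (adjusted p = 0.000485, edgeR) and by 1.43 ± 0.28 after HGF (adjusted p = 0.0127, edgeR). The second call was lost without Activin library 1 or 3 (adjusted p = 0.0627 and 0.0527, edgeR). SOCS3, best known as a brake on interleukin-6 family signalling, rose by 1.15 ± 0.26 with activin (adjusted p = 0.0138, edgeR) and stood 1.3 ± 0.27 above NC in Activin+HGF (adjusted p = 0.00466, edgeR). The call with activin was lost without NC library 1 or 3 (adjusted p = 0.0514 and 0.0653, edgeR) and without Activin library 2 (log2 fold change 0.92). Over the 12 genes the median log2 fold change was 0.055 with activin, close to that of all genes.

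Among the factors that switch interferon genes on, 15 of 17 listed symbols were in the table and all 15 were tested. With activin 5 rose and none fell by edgeR, DESeq2 or limma, with 2 lower at an unadjusted p under 0.05, where 6.78% of all tested genes rose and 4.62% fell by edgeR. Between Activin+HGF and Activin 5 fell and 1 rose by edgeR, where 4.21% of all fell and 3.87% rose. Between Activin+HGF and NC 3 fell and 2 rose by edgeR, where 10.2% of all fell and 11.3% rose. As the list was drawn up with these results known, the counts are descriptions. The 5 that rose with activin were IRF7, JUN, IFIH1, IRF1 and DDX58.

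The sensor genes IFIH1 and DDX58 were highest in Activin, as the ligands were. IFIH1, which encodes the sensor MDA5, measured 1.76, 1.14 and 1.35 FPKM in NC, 7.67, 4.60 and 7.14 in Activin and 0.89, 1.09 and 1.36 in Activin+HGF. It rose by 2.10 ± 0.23 (adjusted p = 0.000315, edgeR) and fell by 2.15 ± 0.23 (adjusted p = 0.00177, edgeR). DDX58, which encodes RIG-I, rose by 1.60 ± 0.38 (adjusted p = 0.0169, edgeR) and fell by 2.47 ± 0.40 (adjusted p = 0.0067, edgeR). Its rise was lost without NC library 1 or 2 or Activin library 1 or 3 (adjusted p = 0.0551, 0.0683, 0.053 and 0.0563, edgeR).

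The sensor TLR3 and the kinase gene IKBKE, which acts on IRF3 and IRF7, did not rise with activin. TLR3 had 128, 94 and 168 counts in NC, 84, 80 and 120 in Activin and 0, 8 and 23 in Activin+HGF. It fell by 3.52 ± 0.86 in Activin+HGF against NC (adjusted p = 0.0111, edgeR). IKBKE had 1.37, 1.49 and 1.3 FPKM in NC, 0.55, 0.68 and 0.83 in Activin and 0.03, 0.22 and 0.18 in Activin+HGF. It fell by 3.0 ± 0.53 in the same comparison (adjusted p = 0.00222, edgeR). Their falls against Activin, by 3.05 ± 0.84 and 1.91 ± 0.51 (adjusted p = 0.0407 and 0.0367, edgeR), were each lost without any 1 Activin library and without 1 Activin+HGF library, library 2 for TLR3 and library 3 for IKBKE, with adjusted p of at most 0.11 and 0.0924 (edgeR). Both were also lost with only these groups in the fit (adjusted p = 0.111 and 0.101, edgeR).

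The IRF genes differed from one another after HGF. IRF1 measured 2.01, 1.87 and 1.98 FPKM in NC, 6.01, 8.10 and 6.83 in Activin and 0.87, 2.41 and 2.61 in Activin+HGF, a rise by 1.77 ± 0.32 (adjusted p = 0.00446, edgeR) and a fall by 1.5 ± 0.32 (adjusted p = 0.0163, edgeR), which was lost with only these groups in the fit (adjusted p = 0.0519, edgeR). IRF7, a main driver of type I interferon genes, measured 1.10, 1.06 and 0.89 FPKM in NC, 11.1, 13.7 and 10.1 in Activin and 8.94, 10.8 and 10.1 in Activin+HGF. It rose by 3.42 ± 0.22 with activin (adjusted p = 1.59e-05, edgeR) and stood 3.56 ± 0.23 above NC after HGF (adjusted p = 1.15e-05, edgeR). In IRF7 the Activin+HGF libraries overlapped the Activin libraries on either scale. The part of IRF7 in the levels of the interferon genes was not tested. The log2 difference in CPM was 0.13 ± 0.20, while mean FPKM was lower in Activin+HGF, at 9.96 ± 0.953 against 11.6 ± 1.85 (SD, n = 3).

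JUN, an AP-1 subunit, measured 5.36, 5.18 and 4.82 FPKM in NC, 39.1, 50.3 and 40.5 in Activin and 159, 85.0 and 79.6 in Activin+HGF. It rose by 3.02 ± 0.33 with activin (adjusted p = 0.000308, edgeR) and by 1.72 ± 0.32 after HGF (adjusted p = 0.0103, edgeR). The second was lost without Activin library 1 (adjusted p = 0.0556, edgeR). NFKB1, a subunit gene of NF-kappaB, was called lower in Activin+HGF than in NC, at -1.22 ± 0.26 (adjusted p = 0.0062, edgeR). Without Activin+HGF library 1 this call was lost (log2 fold change -0.94). Against Activin, NFKB1 had -0.85 ± 0.26. It passed with limma and in edgeR with library totals, but not in edgeR with TMM scaling. RELA, another subunit gene, had 0.84 ± 0.25 in Activin+HGF against NC, short of the fold limit.

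**Figure D5:**
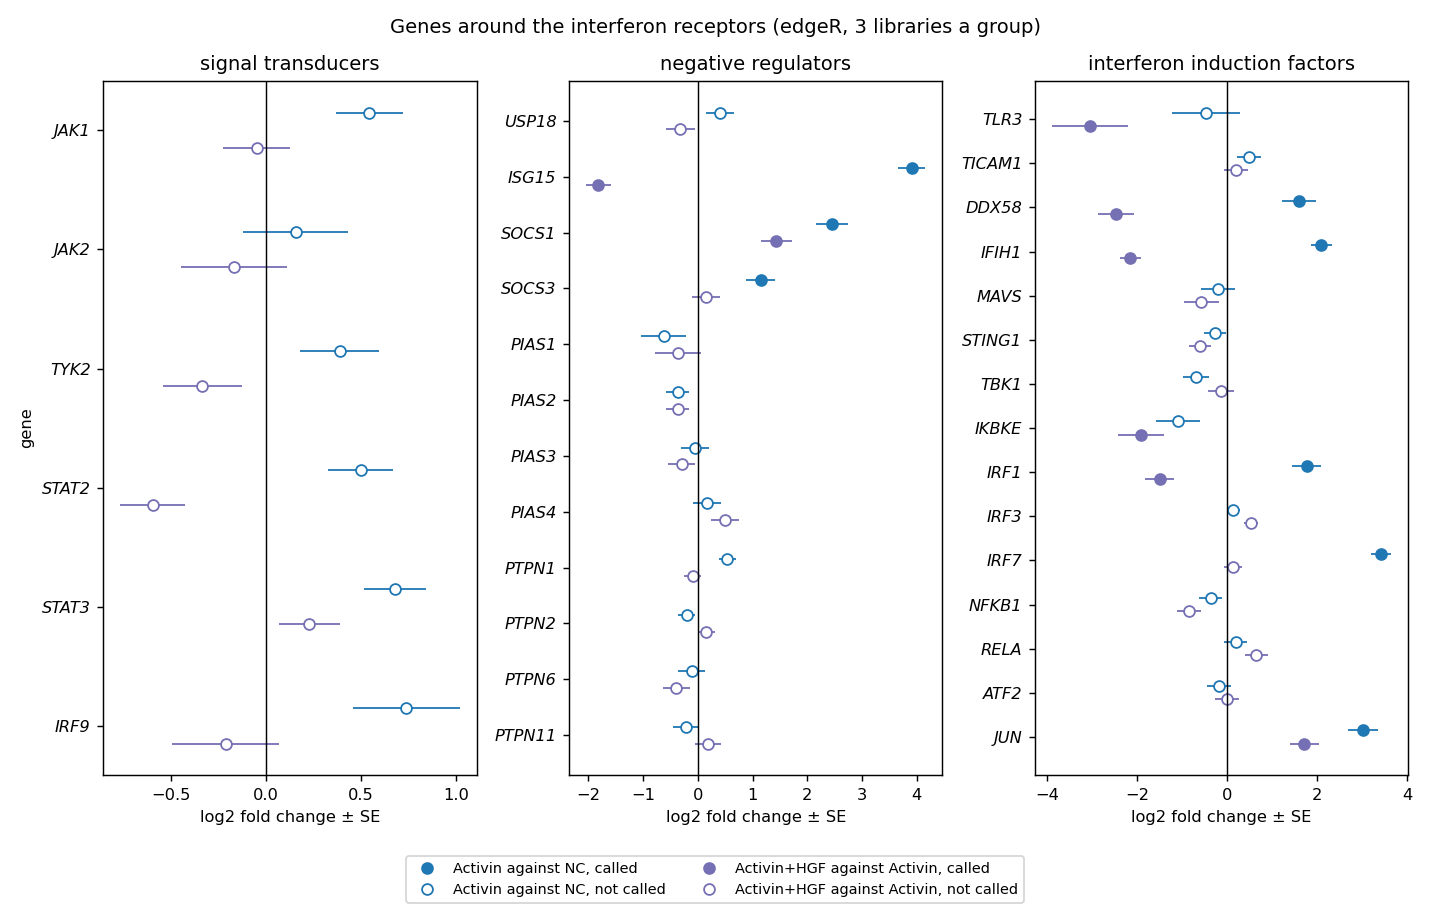
Log2 fold change (horizontal axes, different in each panel) with standard errors for 6 signal transducers, 12 negative regulators and 15 induction factors in Activin against NC and Activin+HGF against Activin; filled points passed the test and open points did not. ISG15, IRF7 and JUN lie above 3 with activin.

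Among 6 other receptors of the class to which the interferon receptors belong, 5 were tested and IL20RB was the 1 called by edgeR, in all 3 comparisons. DESeq2 also called IL10RA higher and IL20RA lower in Activin against NC, and IL20RA higher in Activin+HGF against Activin, where edgeR had adjusted p of 0.0532, 0.0728 and 0.0557. IL20RB, a chain of the receptors for interleukins 19, 20 and 24, measured 0.77, 0.70 and 0.92 FPKM in NC, 14.4, 15.4 and 16.1 in Activin and 2.67, 4.80 and 5.04 in Activin+HGF. It rose by 4.18 ± 0.25 with activin (adjusted p = 1.2e-05, edgeR) and fell by 1.52 ± 0.23 after HGF (adjusted p = 0.00539, edgeR). Of the other cytokines that use IL10RB, IL10 was the 1 of 3 in the table, with at most 4 counts in any library.

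Most markers of other cells were low, ITGAX and COL1A1 being the exceptions. Of 6 leukocyte markers in the table, 5 stayed at or under 0.5 FPKM in every library, PTPRC, CD3E and CLEC4C at or near 0 among them. The summed level of the 6 was 0.34 to 0.51 FPKM in NC, 1.62 to 1.99 in Activin and 1.03 to 1.70 in Activin+HGF. Most of it in the treated groups was ITGAX, an integrin chain, at 0.13 to 0.21 FPKM in NC, 1.47 to 1.61 in Activin and 0.8 to 1.22 in Activin+HGF, which rose by 3.22 ± 0.29 with activin (adjusted p = 0.000114, edgeR) and stood 3.05 ± 0.29 above NC after HGF (adjusted p = 7.85e-05, edgeR). Of 4 fibroblast markers, DCN, PDGFRA and COL3A1 stayed at or under 0.5 FPKM and the sum, mainly COL1A1, was 2.60 to 2.79, 4.26 to 5.81 and 2.82 to 3.51 FPKM in the same order of groups. COL1A1 rose by 1.03 ± 0.16 with activin (adjusted p = 0.00205, edgeR), short of the limit without NC library 3 (0.99). It lay at 2.22 to 5.80 FPKM over all libraries, a level like that of several receptor genes. COL3A1, another collagen gene, went the other way, with 59, 144 and 212 counts in NC, 3, 0 and 0 in Activin and 14, 21 and 27 in Activin+HGF. It was called lower in both treated groups than in NC (adjusted p = 0.00111 and 0.0234, edgeR) and higher in Activin+HGF than in Activin (adjusted p = 0.0163, edgeR). The call of Activin+HGF against NC was lost in 4 of 6 fits without 1 library, and that against Activin without Activin library 3 and with only these groups in the fit. PDGFRA, a growth factor receptor of fibroblasts, had 12, 98 and 69 counts in NC, 0, 16 and 11 in Activin and 0 in each Activin+HGF library, which were called lower than NC (adjusted p = 0.0121, edgeR). The 4 endothelial markers stayed at or under 0.5 FPKM in every library, their sum at most 0.38. The part of these markers in the interferon and receptor values was not tested.

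The epithelial markers summed to 668 to 722 FPKM in NC, 556 to 759 in Activin and 645 to 876 in Activin+HGF. EPCAM rose by 1.02 ± 0.16 after HGF (adjusted p = 0.0067, edgeR), a call lost without Activin library 1 (0.88) or 3 (0.93), without Activin+HGF library 1 (0.89), with library totals, with only these groups in the fit and with limma at either pseudocount. KRT20, a marker of mature colon cells, fell by 1.63 ± 0.41 with activin (adjusted p = 0.0203, edgeR) and was lost in 4 of 6 fits without 1 library.

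Profiles over the 9 libraries were compared by the root mean square difference of centred log2(CPM + 0.1). Among genes with a symbol outside the members, those most like IFNL1 were CCL5 (0.380), CXCL10 (0.878) and KRT17 (1.13). CCL5 and CXCL10 encode chemokines that attract T cells. CCL5 measured 17.1 to 23.3 CPM in Activin and at most 0.257 CPM in any other library, and CXCL10 3.35 to 4.64 CPM and 0 elsewhere. IFNL2 and IFNL3 lay at 0.273 and 0.462 from IFNL1. For IFNB1 the nearest were CXCL11 (0.331), a chemokine of the same receptor as CXCL10, RSAD2 (0.527), which encodes the antiviral enzyme viperin, and SERINC4 (0.548). For IFNLR1 they were LRIG1 (0.0909), GOLGA2 (0.1) and FAAH2 (0.101), and IFNGR2 was the nearest of the members (0.232). LRIG1, a restrainer of ERBB receptors, measured 9.74 to 11.5 CPM in NC, 17.1 to 22.9 in Activin and 20.8 to 22.2 in Activin+HGF.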

How the data were processed

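RNA of 9 HCT116 libraries, 3 in each of NC, Activin and Activin+HGF, was sequenced as paired ends after ribosomal RNA depletion. The authors deposited 1 table with counts of reads per gene, not normalized, and FPKM values, which are scaled to library size and gene length. The submitters' processing notes name cutadapt 1.9, HISAT2 2.0.4 and StringTie 1.3.4d without roles; the counting program, strand setting and genome build are not given in the sources used here. Group and replicate number come from the library titles. Columns were matched to the titles through the library descriptions. The Activin+HGF columns carry the name of the line alone, with no mark of treatment, so their group rests on this match.

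The 10 genes and all gene lists were chosen with earlier results of these data known. Counts were fitted with edgeR 4.0.16 in R 4.3.3 (filterByExpr, TMM, glmQLFit and glmQLFTest) over all 9 libraries with a mean per group and no block. A call needed an adjusted p (Benjamini-Hochberg, over all 20988 tested genes) under 0.05 and a log2 fold change of 1 or more in size. The paper names Student's t-test and analysis of variance for its analyses in general, and no test for the RNA sequencing in particular. Standard errors are approximate, the log2 fold change divided by the square root of the F statistic. Folds of genes at 0 used a floor of 3 counts. The fit was tested on simulated counts first. FPKM of the members tracked their counts, with a ratio that moved by at most 1.01-fold between libraries after scaling.

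Named genes were all 10 members, the 6 signal transducers and at most 6 called genes from each other list with the largest change. Also named were neighbours on chromosome 21 and the 3 genes with a symbol, not members, nearest in profile to each of IFNL1, IFNB1 and IFNLR1. IRF1, NFKB1, RELA, USP18, IL10 and markers at or near 0 were named after their values were seen. A gene that meets this rule is not reported here. Alternatives were DESeq2 1.42.0 and its size factors, no filter, the replicate block, only the groups compared, limma 3.58.1 on log2(FPKM + 0.1) and log2(FPKM + 1), and each library left out. Promoter windows and their letters came from RefSeq and transcripts from GENCODE v29, and were searched in Python 3.11.15. IFNAR2 had no promoter entry. The number of libraries, 3 a group, limits the precision.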

Additional observations from a re-analysis of the deposited data

How the results depend on the processing

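Counts of called genes were 2394, 1697 and 4519 for Activin against NC, Activin+HGF against Activin and Activin+HGF against NC. In the first comparison they were 1199 with limma on log2(FPKM + 1) and 3776 with no fold limit. In the second they were 677 with only the groups compared, 2645 with DESeq2, 699 with limma on log2(FPKM + 1) and 2698 with no fold limit. In the third they were 2238 with limma on log2(FPKM + 1). Leaving out 1 library gave 1688 to 2234, 606 to 2418 and 3537 to 4488. In the second comparison, Activin library 1 (606 without it), Activin library 3 (866) and Activin+HGF library 1 (1079) lowered the count most, and it was highest without Activin library 2 (2418). These fits test fewer libraries.

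With the replicate block the counts were 2218, 1366 and 4222. Equal numbers did not pair the libraries (correlations of -0.0606 to 0.0882 between deviations), so the block removes degrees of freedom without a pairing. The IFNAR2 difference between Activin+HGF and NC was -1.05 with the replicate block, against -0.95 without it, and of the list genes SON with activin (-1.03) and IL10RA with activin (1.91) and against NC after HGF (1.07) became called. Of 255 alternative values of the receptor log2 fold changes, 229 moved by less than the spread between libraries and 26 by more, all 26 in comparisons of Activin+HGF. The receptor differences that changed sign under an alternative were all at most 0.27 in size. All 63 alternative values of the chain ratios and all 20 of the interferon levels stayed within that spread. Where a library was left out, however, a group mean can move only by less than the spread between its own libraries. Values from such fits could hardly fall outside the spread. Their part in these counts, the 229 included, is therefore no test of stability. With limma on log2(FPKM + 1) the calls of IFNE, of SOCS1, IKBKE and EPCAM between Activin+HGF and Activin, of SOCS3 and ITGAX between Activin+HGF and NC, of COL1A1 with activin and of KRT20 against NC in both treated groups were lost. Those of SOCS3 and EPCAM were also lost with limma on log2(FPKM + 0.1). TLR3, COL3A1 and PDGFRA did not pass the FPKM filter of limma, and limma gave no value for them. Library totals, the counts of the readthrough row and the alternatives of the interferon levels were chosen after seeing the data.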
